A study of Mus musculus with 63 samples.

Results

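The comparison set proximal tubule (PT) cells of the uninjured mouse kidney against the 3 other cell populations sorted from the same kidneys. Its members were 16 sRNA-Seq libraries of the 63 in the series, taken from the sample labels alone. They came from 4 sham-operated mice, each of which gave 1 library of PT cells (LTL+), 1 of endothelial cells (ECs, CD31+), 1 of macrophages (Macs, F4/80+) and 1 of PDGFR-β+ cells. PT cells thus had 4 libraries and the other populations 12. All animals were male C57BL/6 mice aged 8 to 12 weeks; the sources used here name no transgene or drug for them and do not describe the steps of the sham operation. The animals sequenced were those nearest to their group's mean expression of Havcr1, a tubular injury gene. The cells were sorted by flow cytometry from digested cortex: ECs as CD45–CD31+, Macs as CD45+F4/80hi, and PT and PDGFR-β+ cells from the CD45–CD31– gate. LTL is a lectin that binds the brush border of the proximal tubule. PDGFR-β marks pericytes, fibroblasts and mesangial cells together, and the CD31+ gate does not separate glomerular from peritubular endothelium. In every count table the rows were 2110 genomic loci of mature miRNAs, of which 1272 had any count in the sham libraries and 478 had enough counts to be tested.

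A miRNA is cut from a hairpin precursor, and each arm of the hairpin (5p or 3p) can give a mature strand of about the same length. The strand loaded into Argonaute recognises messenger RNAs mainly through its seed, bases 2 to 8, so that miRNAs with the same seed share many predicted targets. The proximal tubule reabsorbs most filtered solute and is epithelial. The cluster of miR-192 and miR-194, which is abundant in liver, gut and kidney, and the miR-200 family, which keeps the epithelial state by repressing ZEB transcription factors, are known from such cells. miR-126 is the classical endothelial miRNA, miR-223 and miR-142 belong to myeloid and other blood cells, and miR-143/145 to smooth muscle and mural cells.

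The mature sequences below, from RefSeq (GRCm38.p6), belong to the miRNAs on which the comparison turned, with the seed in capitals. The first set holds miRNAs called higher in PT cells, with miR-215-5p beside miR-192-5p because their seeds are the same.
miR-192-5p, chr19:6264857-6264877, plus strand: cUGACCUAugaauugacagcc
miR-215-5p, chr1:185313610-185313630, plus strand, within an exon of the antisense RNA 2010103J01Rik: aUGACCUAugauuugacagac
miR-194-5p, chr19:6264658-6264679, plus strand: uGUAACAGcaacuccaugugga
miR-194-2-3p, the other arm of that hairpin, chr19:6264694-6264715, plus strand: cCAGUGGGgcugcuguuaucug
miR-200b-3p, chr4:156055685-156055706, minus strand, intron of Ttll10: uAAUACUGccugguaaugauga
miR-802-5p, chr16:93369737-93369758, plus strand: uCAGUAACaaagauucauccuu
miR-1968-5p, chr8:13189068-13189091, minus strand, intron of Grtp1: uGCAGCUGuuaaggaugguggacu
miR-3073a-3p, chr12:112109290-112109311, plus strand, intron of Aspg: uUGAUGUCcacugugaccauag
miR-22-3p, chr11:75463772-75463793, plus strand, exon of Mir22hg: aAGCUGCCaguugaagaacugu

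The second set holds miRNAs called lower in PT cells, with miR-204-5p shown because its call turned in the injured kidneys.
miR-322-5p, chrX:53054306-53054327, minus strand: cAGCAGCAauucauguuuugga
miR-27a-3p, chr8:84208727-84208747, plus strand: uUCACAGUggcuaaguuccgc
miR-511-3p, chr2:14261051-14261072, plus strand, intron of Mrc1: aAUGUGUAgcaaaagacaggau
miR-126a-3p, chr2:26591402-26591423, plus strand, within Egfl7: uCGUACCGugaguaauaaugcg
miR-223-3p, chrX:96242884-96242905, plus strand: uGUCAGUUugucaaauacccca
miR-204-5p, chr19:22750610-22750631, plus strand, intron of Trpm3: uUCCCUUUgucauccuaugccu

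PT libraries were the shallowest, with 622689 to 987306 counts against 7395011 to 10819385 in ECs, 2105184 to 6095639 in Macs and 2732682 to 7932031 in PDGFR-β+ cells. Levels are given as CPM (counts per total counts, on the usual scale) after TMM scaling, and 3 counts over the 4 PT libraries together correspond to 0.692 CPM. Because a sorted population can mix kinds of cells, fewer cells of a kind in it and less of an RNA per cell cannot be told apart. A library also holds a fixed pool of reads, so a level is relative to the other RNAs of that library. A locus was called where the edgeR quasi-likelihood test with the mouse as a block gave a Benjamini-Hochberg adjusted p under 0.05 and a fold change over 1.5. Fold changes are log2 values of PT cells minus the unweighted mean of the 3 other populations unless a single population is named. The median over all 478 loci was -0.25, and -0.22 with the 36 loci at 0 in every PT library placed at the bound that 3 counts allow.

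The markers of the proximal tubule were high in every PT library. Levels of miR-192-5p were 100588, 126550, 124349 and 126820 CPM in the PT libraries of mice 1 to 4. In the 12 other libraries the lowest was 1924, the median 3248 and the highest 4621 CPM. The PT values thus lay far above all others, with a log2 fold change of 5.21 ± 0.11 (SE, edgeR adjusted p = 1.54e-14). For miR-194-5p at the chromosome 19 locus, the PT libraries held 2245, 2722, 2737 and 2760 CPM, against 74.0 to 136 CPM in the other 12 (log2 fold change 4.75 ± 0.11, SE, edgeR adjusted p = 5.61e-14). The level of miR-192-5p in ECs, Macs and PDGFR-β+ cells was 2.71%, 3.01% and 2.47% of that in PT cells, and that of miR-194-5p 3.93%, 3.28% and 4.07%. The part of carried-over tubular RNA in those levels was not tested.

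As a share of raw counts, loci of the family of miR-192, miR-194 and miR-215 took 17.0% ± 1.24 (SD, n = 4) of a PT library. The shares were 0.215% ± 0.0321 in ECs, 0.598% ± 0.0982 in Macs and 0.211% ± 0.0690 in PDGFR-β+ cells (SD, n = 4 each). PT was the highest population in 4 of 4 mice, with a mean difference of 16.7 percentage points from the other 3 (exact permutation of the PT label within mice, 2-sided p = 0.00391, the smallest this design can give). At the depth of the smallest library, 545 ± 21.9 loci (SD, n = 4) had at least 1 count in PT cells, against 484 ± 13.8 in ECs, 515 ± 18.2 in Macs and 432 ± 16.9 in PDGFR-β+ cells. The difference of 67.9 loci had the PT sign in 4 of 4 mice (exact permutation p = 0.0117). PT values, from 520.6 to 573.6, overlapped those of Macs, which reached 533.4. Without mouse 1 the difference was 61.0 loci (exact permutation p = 0.0625). The 10 leading loci took 68.1% ± 1.32 (SD, n = 4) of PT counts, between 59.3% in Macs and 81.7% in PDGFR-β+ cells, so that PT cells lay among the other populations. They were below the mean of the other 3 in 4 of 4 mice, by -3.21 percentage points ± 1.08 (SD over mice), a difference that did not pass the exact permutation of the PT label within mice (p = 0.578).

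**Figure D1:**
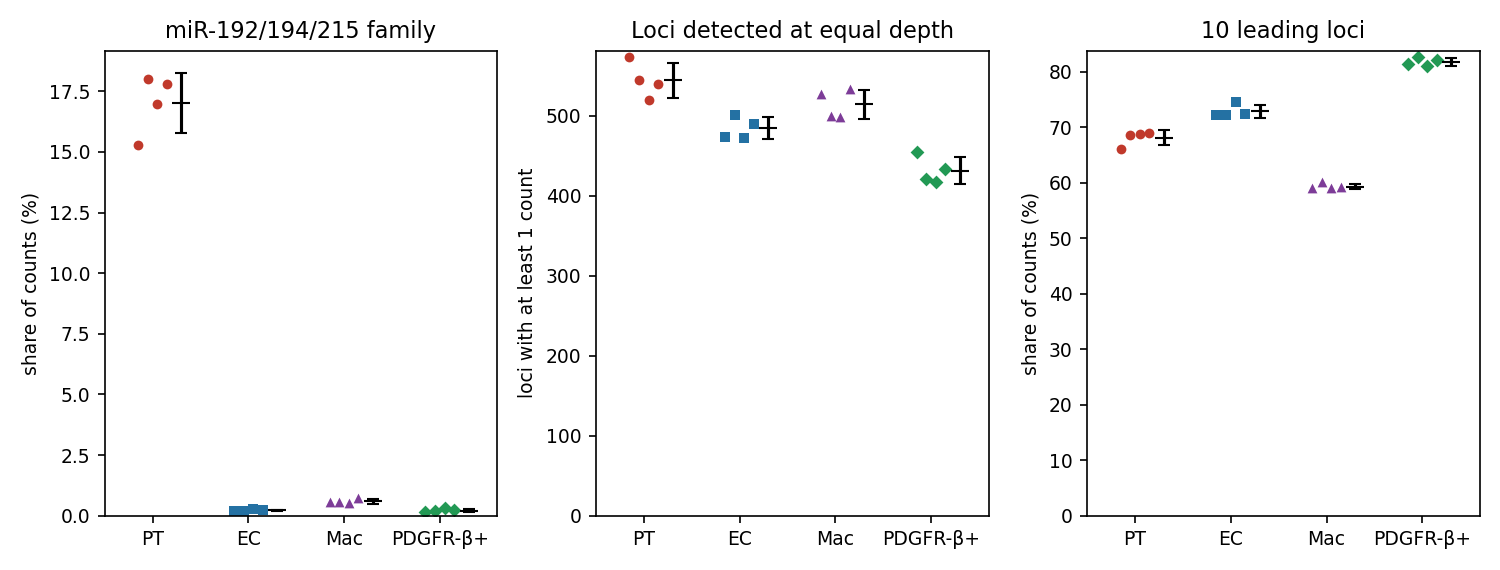
Values per sham library by population: percent of counts at miR-192, miR-194 and miR-215 loci, loci with at least 1 count after thinning to 622689 counts, and percent of counts in the 10 leading loci. Points are the 4 mice and the black marks are the mean with SD; the 4 PT points sit at 15.3% to 18.0% in the first panel and every other library is under 1%, while in the third panel PT lies between Macs and the other populations.

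Across all loci, 138 were called higher in PT cells and 157 lower (28.9% and 32.8% of 478). Scaled by library size alone, with no TMM factor, the same test called 191 higher and 104 lower, and the median over all loci became 0.38, so that 46.8% of calls were higher with TMM and 64.7% without. All 138 higher calls were also made without the factors, as were 104 of the 157 lower ones. Against single populations, PT cells had 128 higher and 166 lower loci than ECs (26.8% and 34.7%), 139 and 137 than Macs (29.1% and 28.7%), and 140 and 148 than PDGFR-β+ cells (29.3% and 31.0%). Without TMM factors these counts became 233 and 112, 130 and 154, and 221 and 87. Calls in the same direction against each of the 3 populations were made for 80 higher and 44 lower loci (16.7% and 9.21%). Thus 80 of the 138 higher calls held against all 3 populations, and 44 of the 157 lower calls. Among the other 3 populations, ECs had the highest level at 59 of the lower loci (of 141 such loci tested), Macs at 51 (of 189) and PDGFR-β+ cells at 47 (of 148).

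**Figure D2:**
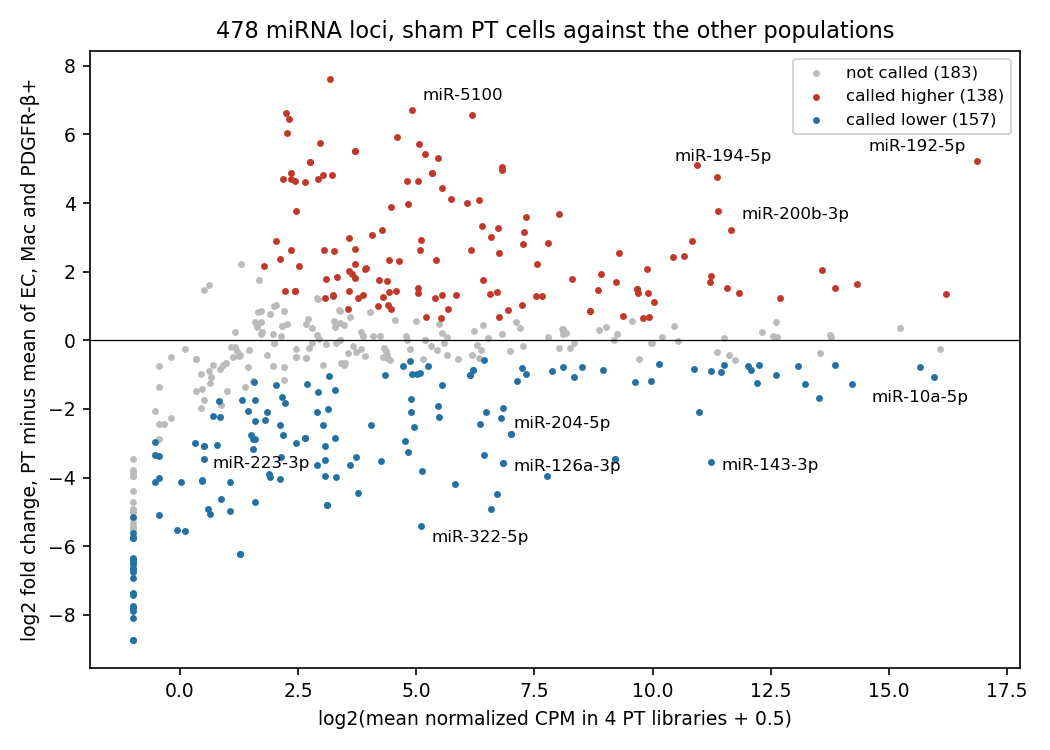
Each point is 1 of 478 miRNA loci in sham kidney, with its mean level in the 4 PT libraries on the x axis (log2 of normalized CPM plus 0.5) and its log2 fold change against the mean of the other populations on the y axis. Called loci are coloured (138 higher, 157 lower); miR-192-5p stands at the far right with a log2 fold change of 5.21, and the column at the left edge holds the 36 loci at 0 in every PT library.

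PT libraries all lay above the other 12 at 85 of the 478 loci, and 84 of these were called higher. Among those 84, the 10 with the largest fold change, at a PT mean of 10 CPM or more, ran from miR-5100 (6.70) to miR-1247-5p (5.06). Lack of overlap was thus part of how the 10 were chosen. miR-5100, miR-1968-5p, miR-802-5p, miR-194-2-3p, miR-3073a-3p, miR-5126 and miR-682 had enough counts to be tested only through their PT libraries, where they were high. A high PT level was thus a condition of their test, and their adjusted p values are no separate evidence. miR-5100 lies in an intron of Mief2. PT libraries held 25.1, 31.1, 12.9 and 48.5 CPM of it, against at most 3.43 in the others, and its libraries of Macs were all at 0, which makes PT cells at least 241-fold higher than Macs (over 3 counts in the group). Next came miR-1968-5p, with 77.2, 78.4, 83.5 and 46.6 CPM in PT cells and 0 to 2.85 CPM elsewhere (log2 fold change 6.58 ± 0.44, SE, edgeR adjusted p = 3.75e-09). The lowest PT library of this miRNA was that of mouse 4. miR-802-5p, also known from liver, had 9.30, 27.7, 24.3 and 33.6 CPM in PT cells and a highest other value of 1.92 CPM (5.94 ± 0.62, SE, edgeR adjusted p = 5.18e-07). Mouse 1 was the lowest of the 4 for miR-802-5p.

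The minor arm of the miR-194-2 hairpin rose with the major one. miR-194-2-3p had 34.4, 40.3, 36.4 and 19.6 CPM in PT cells and 0 to 3.36 CPM in the others (log2 fold change 5.71 ± 0.53, SE, edgeR adjusted p = 1.54e-07). miR-3073a-3p had 13.9, 6.91, 14.4 and 14.9 CPM against at most 1.92 CPM (5.52 ± 0.88, SE). These low levels rest on 141 and 56 counts over the PT libraries. Of the remaining loci, miR-6538, in an intron of Rnf144a, was the most abundant after miR-192-5p, with 2066, 2836, 1333 and 1620 CPM in PT cells and 25.3 to 106 CPM elsewhere (5.12 ± 0.21, SE, edgeR adjusted p = 2.78e-11). miR-5126 (23.3 to 57.6 CPM in PT cells, at most 2.97 elsewhere), miR-682 (15.9 to 62.2, at most 2.57) and miR-1247-5p (79.0 to 161, at most 39.7) did not overlap the others either. The whole mature sequence of miR-682 also occurs in the ribosomal protein transcript Rpl37a and in 5 pseudogenes, so its reads cannot be placed with certainty. miR-1247-5p was the member closest to another population, with 22.9 CPM in PDGFR-β+ cells, or 20.5% of the PT level.

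**Figure D3:**
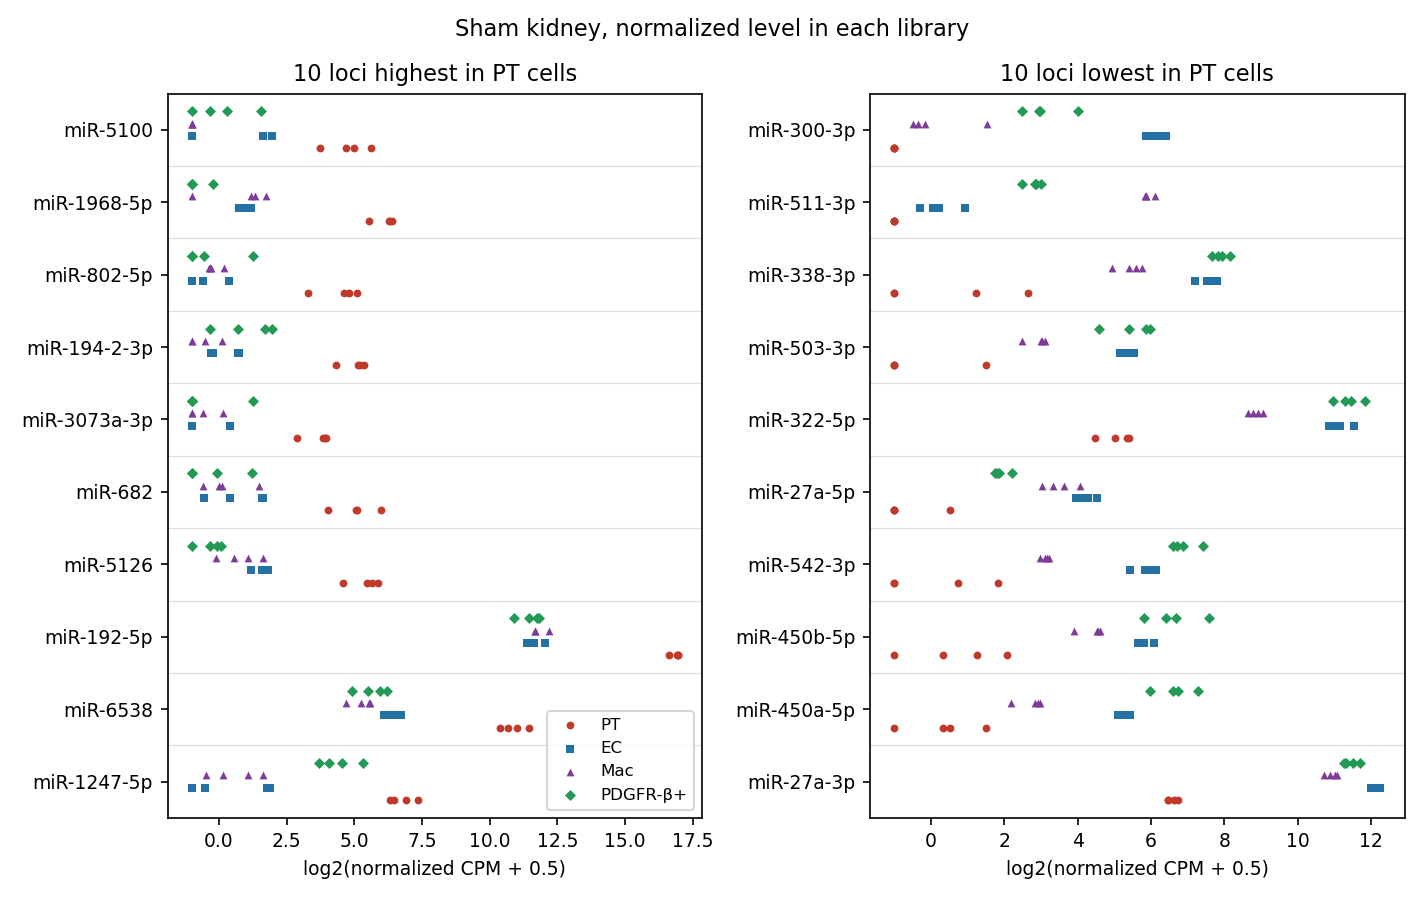
Normalized level (log2 of CPM plus 0.5) in each of the 16 sham libraries for the 10 loci with the largest fold change above (left) and below (right) the other populations, 1 point per library and colour by population. The loci were chosen so that the red PT points lie right of all others in the left panel and left of all others in the right panel. PT values of miR-192-5p start at 100588 CPM, and for miR-300-3p and miR-511-3p all 4 are at 0.

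The most abundant loci of PT cells were, in order, miR-192-5p, miR-22-3p, miR-10b-5p, miR-10a-5p, let-7f-5p, miR-30a-5p, miR-30e-5p, miR-26a-5p, miR-181a-5p and miR-30c-5p. Only some of them set PT cells apart. miR-22-3p had 71641, 77587, 77950 and 76734 CPM in PT cells and 19872 to 48810 CPM in the others (log2 fold change 1.36 ± 0.07, SE, edgeR adjusted p = 3.63e-10), with no overlap. miR-10b-5p, encoded beside the Hoxd genes, had a mean of 69595 CPM in PT cells, 153943 in ECs, 13021 in Macs and 286979 in PDGFR-β+ cells. It was called lower than in ECs and PDGFR-β+ cells and higher than in Macs, and its difference from the mean was -0.25 (edgeR adjusted p = 0.0996), which became 0.40 under library size alone. For miR-10a-5p the means were 63466, 329577, 36999 and 199105 CPM in the same order, and it was called lower against the mean (-1.08, and -0.44 and not called under library size alone).

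miR-26a-5p had 18244, 17532, 21310 and 19439 CPM in PT cells and 31308 to 65025 CPM elsewhere, so that PT cells were lowest in every mouse (-1.28 ± 0.08, SE, edgeR adjusted p = 2.40e-09). let-7f-5p, at its chromosome X locus, ran from 48541 to 58277 CPM in PT cells and from 73161 to 110597 CPM elsewhere. Its fold change of -0.78 was called with TMM factors and not under library size alone (-0.14). miR-181a-5p was lower than in ECs (-1.02) and Macs (-1.10), while against PDGFR-β+ cells it differed by -0.03 (edgeR adjusted p = 0.749). Under library size alone its fold change against the mean was -0.08.

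Of the 12 tested loci of the miR-30 family, abundant in kidney epithelium, 6 were called higher, 2 lower and 4 neither, with a median log2 fold change of 0.51 against -0.25 for all loci. The members did not move as 1 block. miR-30e-5p, in an intron of Nfyc, had 17584, 20188, 22169 and 21580 CPM in PT cells and 5378 to 8609 CPM elsewhere (1.65 ± 0.09, SE, edgeR adjusted p = 4.75e-10). miR-30c-5p had 12428, 14615, 15326 and 16712 CPM, above the 2565 to 11501 CPM of the others (1.53). miR-30a-5p, which has the same seed GUAAACA, was highest in ECs (67089 CPM) and reached 38317 CPM in PT cells, 12324 in Macs and 32060 in PDGFR-β+ cells. Its log2 fold change was 0.37 and passed the fold limit under library size alone (1.01). miR-30b-5p and miR-30d-3p were the 2 lower calls, and neither was made under library size alone, where 7 loci were higher and 0 lower.

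Of 7 tested loci of the epithelial miR-200 family, 6 were called higher and 1 lower (median 2.89). miR-200b-3p had 3596, 3267, 3008 and 3082 CPM in PT cells and 192 to 858 CPM elsewhere (3.22 ± 0.11, SE, edgeR adjusted p = 4.34e-12). The 5 tested loci of the chromosome 4 cluster, from miR-429-3p to miR-200b-3p, were called higher against each of the 3 populations. The family has a second cluster, miR-200c/141, and it behaved otherwise. miR-200c-3p, with the same seed as miR-200b-3p (AAUACUG), was low everywhere, at 14.2 CPM in PT cells and 4.23 to 7.71 CPM in the other means (1.33, edgeR adjusted p = 0.0390). miR-141-3p had 110, 65.7, 69.1 and 98.8 CPM in PT cells within the 59.3 to 289 CPM of the others, and was highest in PDGFR-β+ cells (117 to 289 CPM). Its lower call (-0.59, edgeR adjusted p = 0.0164) was not made under library size alone or with DESeq2 size factors. Its seed AACACUG is that of miR-200a-3p, which was called higher (2.55).

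Other epithelial miRNAs with enough counts numbered 9, of which 6 were called higher and 0 lower (median 1.43). Besides miR-802-5p they were miR-203-5p (4.88), miR-190a-5p (4.00), miR-182-5p (1.46), miR-183-5p (1.43) and miR-203-3p (0.86). miR-205-5p, miR-31-5p and miR-375-3p, which in kidney and other organs mark other epithelia, had 6.93, 15.8 and 85.0 CPM in PT cells against 12.9, 29.1 and 117 CPM in PDGFR-β+ cells and were not called. Under library size alone miR-31-5p (1.51) and miR-375-3p (1.08) were called higher. Of the 10 tested loci of miRNAs in the Hox clusters, 6 were higher and 1 lower (median 1.81). The higher ones were all of the miR-196 group, which represses Hox genes. miR-196b-5p had means of 1373 CPM in PT cells, 403 in ECs, 42.2 in Macs and 997 in PDGFR-β+ cells, and the 5p strands of miR-196a and miR-196b were not called against PDGFR-β+ cells.

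miR-204-5p, an epithelial miRNA of the Trpm3 intron, was called lower in PT cells. It had 143, 107, 112 and 91.3 CPM in PT cells, 3754, 3540, 2446 and 2172 CPM in ECs, 24.8 to 49.5 CPM in Macs and 507 to 1499 CPM in PDGFR-β+ cells. PT cells were thus above Macs (1.63) and below ECs (-4.71) and PDGFR-β+ cells (-2.81), with no overlap in any of the 3, and the fold change against the mean was -1.96 ± 0.22 (SE, edgeR adjusted p = 1.69e-06). The other 3 names of the list of miR-204 and miR-211 had too few counts to be tested.

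miR-215-5p has the seed of miR-192-5p, UGACCUA, but not its level. It had 3.72, 2.30, 1.52 and 0 CPM in PT cells and 0.593 to 4.61 CPM in the others, resting on 8 counts in PT cells, and was not called (-0.44, edgeR adjusted p = 0.610). The miR-194-5p locus next to miR-215-5p on chromosome 1, whose mature strand is the same as that of chromosome 19, had a mean of 46.2 CPM in PT cells and 1.42 to 2.80 CPM in the others (4.45). Reads of the 2 loci have the same sequence, so their placement depended on the aligner. Of the 6 tested loci of the family of miR-192, miR-194 and miR-215, 5 were thus higher (median 4.72).

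The let-7 family had 12 tested loci, with 2 called higher and 6 lower (median -0.59). The sign of the family's median and its counts of calls depended on the scaling, as they did over all loci. Under library size alone 5 were higher and 1 lower and the median was 0.05. The median over all 478 loci rose likewise, from -0.25 to 0.38. Of those loci 191 were called higher and 104 lower under library size alone. The family's median lay below that of all loci under both scalings. Within the family let-7b-5p was called higher (1.22), with means of 6603 CPM in PT cells and 617 in Macs, and let-7i-5p lower (-2.08), with 2026 CPM in PT cells and 7299 to 11355 CPM in the other means. Both share the seed GAGGUAG. The miR-17-92 cluster and its paralogs, linked to proliferation, gave 17 tested loci, 2 higher and 8 lower (median -0.99), and 4 and 4 under library size alone. The exception at the top was miR-106a-5p (6.44), at 4.47 CPM in PT cells, 0 in every library of ECs and PDGFR-β+ cells and 0.298 CPM in Macs. PT cells were thus at least 34.3-fold higher than ECs and at least 19.4-fold higher than PDGFR-β+ cells. This locus had enough counts to be tested only through its PT libraries. Few reads carry it, since 3 counts over the PT libraries correspond to 0.692 CPM.

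**Figure D4:**
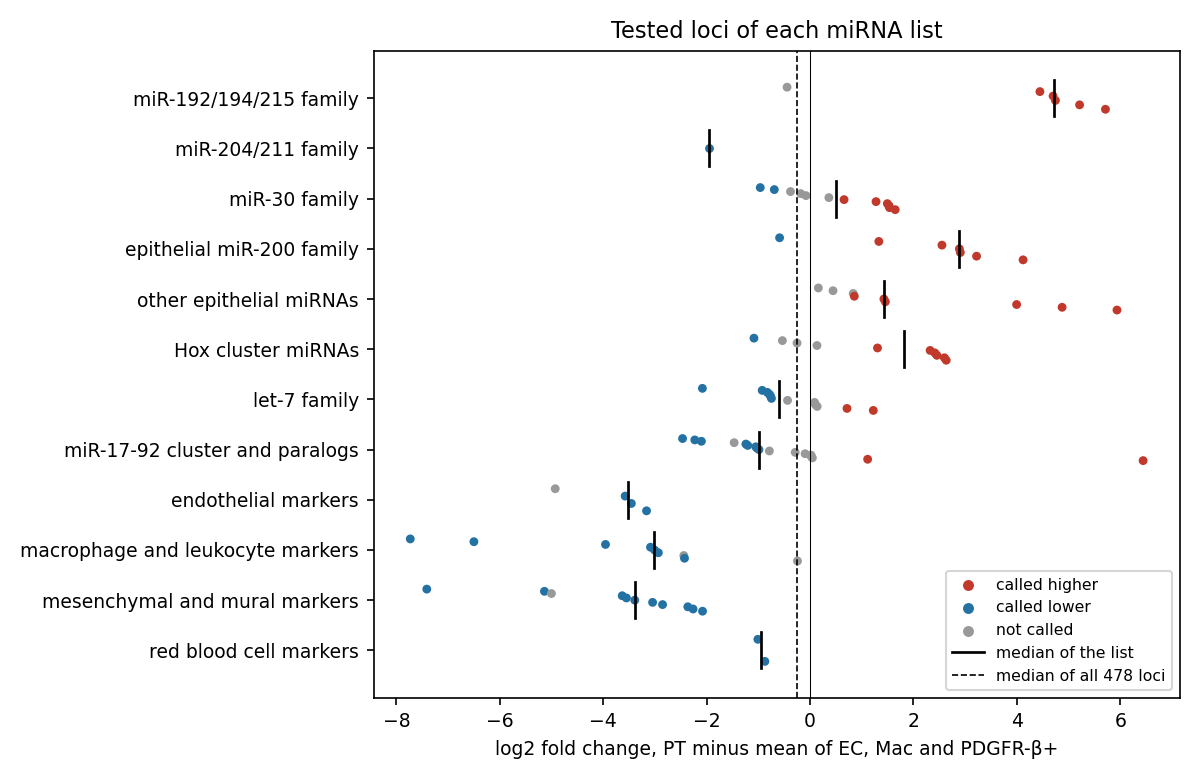
Log2 fold change of PT cells against the mean of the other populations for the tested loci of 12 miRNA lists, 1 point per locus, coloured by call, with the median of each list as a bar and that of all 478 loci (-0.25) as a dashed line. The miR-192, miR-194 and miR-215 loci lie near 4.72 with miR-215-5p alone below 0, the miR-200 family near 2.89, and the marker lists of the 3 other populations below -2 except for 1 locus.

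PT libraries all lay below the other 12 at 48 of the 478 loci, and 46 of these were called lower. Among those 46, the 10 with the lowest fold change ran from miR-300-3p to miR-27a-3p (-4.92), so that lack of overlap was part of their choice. In PT cells miR-300-3p, of the imprinted Dlk1-Dio3 region, had no count in 4 libraries and 57.3 to 84.7 CPM in ECs, which makes PT cells at least 103-fold lower than ECs. miR-511-3p, in an intron of the macrophage mannose receptor gene Mrc1, also had no count in PT cells and 57.2 to 68.0 CPM in Macs, at least 87.1-fold higher. The counts allow no such bound above 1.19 for miR-300-3p against Macs or 1.05 for miR-511-3p against ECs. miR-338-3p had 1.86, 5.76, 0 and 0 CPM in PT cells and 30.2 to 285 CPM elsewhere (-6.23 ± 0.48, SE, edgeR adjusted p = 2.10e-08).

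The X-linked cluster from miR-450b to miR-322 gave 5 of these 10 loci. Of its 10 tested loci, 9 were called lower and 0 higher. miR-322-5p, the mouse counterpart of miR-424 and a brake on cell cycle genes, had 40.0, 21.9, 31.9 and 41.9 CPM in PT cells. In the other 12 libraries it ran from 398 CPM in a library of Macs to 3641 CPM in a library of PDGFR-β+ cells, with a median of 2056 (-5.40 ± 0.23, SE, edgeR adjusted p = 5.87e-11). The PT level was 1.47% of that in ECs, 7.31% of that in Macs and 1.24% of that in PDGFR-β+ cells. miR-503-3p, miR-542-3p, miR-450b-5p and miR-450a-5p had 0 to 3.72 CPM in PT cells and had log2 fold changes of -5.56 to -4.92. miRNAs with the seed of miR-322-5p (AGCAGCA) numbered 6 among the tested, of which 5 were lower: miR-497a-5p (-3.53), miR-195a-5p (-3.25), miR-15a-5p (-1.08), miR-16-5p (-0.87) and miR-322-5p itself. Under library size alone miR-15a-5p (-0.44) and miR-16-5p (-0.23) were not called, and the other 3 were.

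The miR-23a/27a/24-2 cluster on chromosome 8 was called lower at 5 of 5 tested loci, and its paralog miR-23b/27b/24-1 on chromosome 13 at 6 of 6. Under library size alone miR-23b-3p (-0.23), miR-27b-5p (-0.10) and miR-3074-1-3p (-1.11) of the second cluster were not called. miR-27a-3p had 97.6, 107, 88.0 and 87.6 CPM in PT cells and 1673 to 4910 CPM elsewhere (-4.92 ± 0.14, SE, edgeR adjusted p = 7.75e-13). PT values of this miRNA varied little between mice. miR-27b-3p, with the same seed UCACAGU, was called lower by a smaller fold (-1.68). Other clusters called lower at every tested locus were miR-497/195 (3), miR-181c/d (3), miR-199a/214 (4) and miR-143/145 (4). Those called higher at every tested locus were miR-194-2/192 (4), miR-200b/429 (5) and miR-30c-1/30e (4). Loci of 1 cluster can come from 1 transcript, and their calls are not independent.

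Markers of the other sorted populations summed to less in PT cells than in the population they mark. Endothelial markers summed to 564 to 853 CPM in PT libraries and to 146954 to 177206 CPM in ECs. Of the 4 tested, 3 were lower and 1 not called (median -3.51, and -3.31 with the locus at 0 at its bound). miR-126a-3p, whose counts overlap with those of miR-126b-5p, had 138, 124, 121 and 72.7 CPM in PT cells and 23632 to 30848 CPM in ECs. Macrophage and leukocyte markers summed to 316 to 367 CPM in PT libraries and 79251 to 87936 CPM in Macs. In ECs the sum was 6194 to 7131 CPM, and in PDGFR-β+ cells 315 to 470 CPM, which overlapped that of PT cells. Of the 9 tested, 7 were lower, 0 higher and 2 not called (median -3.01, and -2.93 with bounds), and miR-511-5p and miR-511-3p were at 0 in PT cells. miR-223-3p had 4.65, 6.91, 4.55 and 3.73 CPM in PT cells and 1853 to 2036 CPM in Macs. The lower call for miR-223-3p came from Macs, since against ECs PT cells differed by 1.05 (edgeR adjusted p = 0.391). miR-150-5p, a lymphocyte miRNA of that list, had 20.5 to 31.1 CPM in PT cells, 87.9 to 151 CPM in Macs and 3003 to 3823 CPM in ECs.

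Mesenchymal and mural markers summed to 1638 to 3652 CPM in PT libraries, 11920 to 25685 CPM in ECs, 1921 to 4621 CPM in Macs and 321955 to 435841 CPM in PDGFR-β+ cells. Of their 11 tested loci 10 were lower and 0 higher (median -3.39, and -2.83 with 3 loci at their bound). miR-143-3p made up most of the sum, with 3454, 2419, 2268 and 1495 CPM in PT cells and 313933 to 426187 CPM in PDGFR-β+ cells, so that PT cells held 0.637% of that level. miR-214-5p, miR-199b-5p and the chromosome 9 locus of miR-199a-3p were at 0 in PT cells. Red blood cell markers had 2 loci with enough counts, miR-486a-5p and miR-486b-5p, both lower with TMM (median -0.94) and neither under library size alone, and they summed to 89.2 to 184 CPM in PT libraries, 159 to 217 CPM in ECs, 508 to 977 CPM in Macs and 95.6 to 334 CPM in PDGFR-β+ cells. The part of carry-over between sorted populations in any of these levels was not tested.

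At the threshold, miR-5122 (edgeR adjusted p = 0.0466) and miR-224-5p (0.0490) lay just inside the lower calls, with 0 to 3.72 CPM in PT libraries, and neither was called under library size alone. miR-139-3p (0.0566) and miR-18a-3p (0.0573) lay just outside. miR-139-3p had no count in PT cells and 24.7 to 37.9 CPM in ECs, which makes PT cells at least 45.4-fold lower than ECs (edgeR adjusted p = 1.10e-05 for that pair), while Macs and PDGFR-β+ cells had at most 0.369 CPM.

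The 2 arms of a hairpin come from 1 precursor, so their ratio within a library needs no scaling between libraries. In 76 hairpins both arms had at least 5 counts in 12 or more libraries, and the log2 ratio of 5p to 3p counts was higher in PT cells for 14 and lower for 17 (18.4% and 22.4%, limma with the mouse as a block, adjusted p under 0.05). Of the 76 hairpins, 7 of those called higher and 2 of those called lower did not overlap the 12 other libraries. Mir25 lay above all 12 but was not called (limma adjusted p = 0.0632). The largest shift toward 5p was in Mir203, whose log2 ratio was -3.73, -3.28, -3.74 and -2.80 in PT cells and -10.4 to -5.28 elsewhere (difference 4.37 ± 0.67, SE, limma adjusted p = 0.000388). The 3p arm of this skin and epithelial miRNA dominated in every library, while the 5p arm had at least 30 counts in each PT library and as few as 0 in libraries of Macs and of PDGFR-β+ cells. The hairpin thus met the count filter partly through the PT libraries, where its 5p arm was high. It could be tested in only 3 of the fits that left out 1 mouse. The miR-203 loci overlap those of miR-203b on the other strand, which carried the same counts.

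Mir671 (difference 2.80), Mir674 (2.07), Mir101a (1.91) and Mir30c-2 (1.61) followed, all without overlap. Mir671 also met the count filter partly through the PT libraries. There its 5p arm had at least 11 counts, against as few as 2 in libraries of Macs and 3 in those of PDGFR-β+ cells. In Mir101a the log2 ratios were -6.28, -6.35, -6.13 and -6.55 in PT cells and -9.94 to -7.43 elsewhere. In Mir30c-2 they were 5.18, 5.31, 5.56 and 6.01 in PT cells and 3.13 to 4.74 elsewhere, and the 5p strand of this hairpin is the same as that of Mir30c-1. Toward 3p the largest shifts were in Mir345 (-2.29 ± 0.41, SE, limma adjusted p = 0.00106) and Mir24-2 (-1.99 ± 0.19, SE, limma adjusted p = 1.28e-05), both without overlap. In Mir345 the 5p arm had only 4, 3, 7 and 2 counts in the PT libraries. Mir455 (-1.91) overlapped ECs and Mir322 (-1.59) PDGFR-β+ cells, and Mir125b-1 (-1.67) lay below ECs and Macs and above PDGFR-β+ cells. Mir455 likewise met the count filter partly through the PT libraries. There its 3p arm had at least 72 counts, against as few as 0 in libraries of PDGFR-β+ cells. The 3p strand of Mir24-2 and the 5p strand of Mir125b-1 are also made by another hairpin each.

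**Figure D5:**
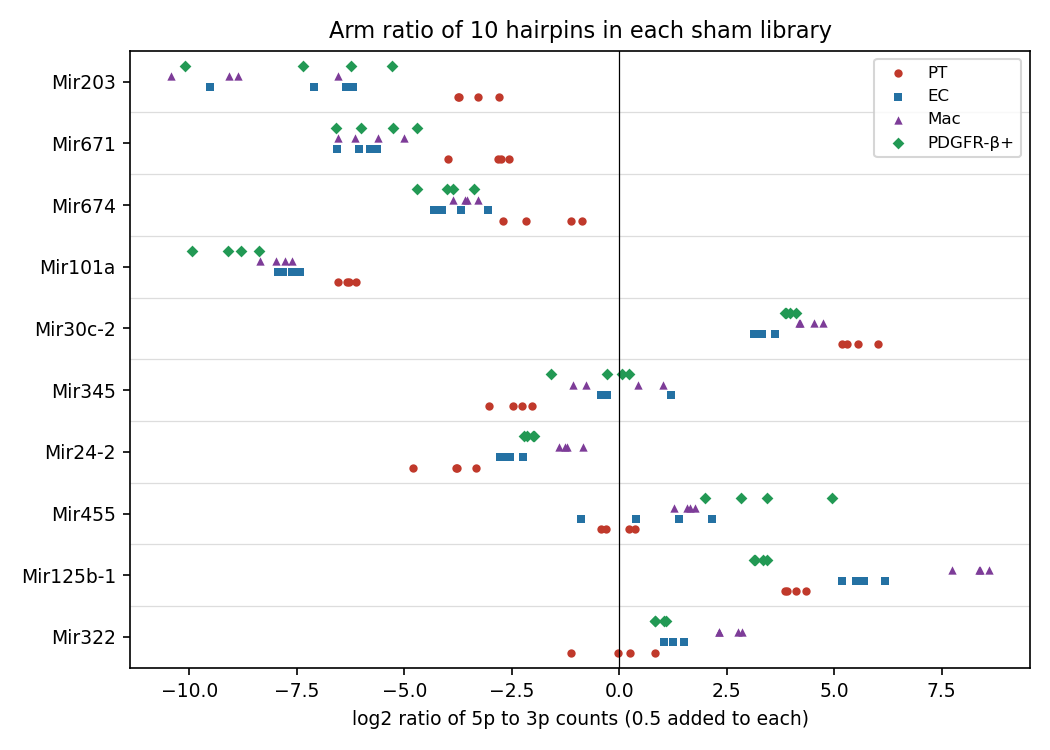
Log2 ratio of 5p to 3p counts (0.5 added to each) in each of the 16 sham libraries for the 5 hairpins with the largest shift of PT cells toward 5p (upper 5) and toward 3p (lower 5), 1 point per library. In the upper 5 the red PT points lie right of all others; in Mir345 and Mir24-2 they lie left of all others, in Mir455 and Mir125b-1 another population reaches farther left, and in Mir322 the PT point farthest right touches the PDGFR-β+ cells.

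The same contrast was then fitted in the other mice of the series: 2 days of unilateral ureteric obstruction (UUO-2), 7 days (UUO-7) and reversed obstruction (R-UUO), each on its own libraries (15 at UUO-7 and 16 elsewhere), which the sham fit did not use. There PT cells had 135 higher and 147 lower loci of 476 at UUO-2 (28.4% and 30.9%), 147 and 152 of 517 at UUO-7 (28.4% and 29.4%), and 115 and 143 of 479 in R-UUO (24.0% and 29.9%). Of the sham-higher loci that could be tested, 102 of 123 were higher again at UUO-2, 95 of 125 at UUO-7 and 85 of 121 in R-UUO. Of the sham-lower loci, 126 of 154, 99 of 155 and 114 of 154 were lower again. In all 3 conditions 77 higher and 87 lower loci kept their call. In the order just given, miR-192-5p was higher by 4.74, 4.70 and 4.82, and miR-200b-3p by 3.98, 3.94 and 3.57. miR-322-5p was lower by -3.12, -2.76 and -2.84, and miR-27a-3p by -3.51, -2.18 and -2.80.

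Calls in the opposite direction were few. At UUO-2 there were 0 among sham-higher and 3 among sham-lower loci, at UUO-7 3 and 10, and in R-UUO 4 and 2. miR-204-5p and miR-141-3p turned in all 3 conditions: miR-204-5p went from -1.96 in sham to 1.41, 2.52 and 1.42, and miR-141-3p from -0.59 to 2.06, 3.04 and 2.61. In the fit of all 63 libraries the PT mean of miR-204-5p was 112 CPM in sham and 720, 1268 and 1027 CPM in the injured groups in that order, while that of ECs was 2796 CPM in sham and 1664, 825 and 719 CPM.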

How the data were processed

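Small RNA of sorted cells was sequenced by the authors (Illumina HiSeq, paired ends), trimmed with Trim Galore 0.4.1 and cutadapt 1.1 and aligned with ShortStack, which runs Bowtie, to GRCm38 with miRBase loci. The deposited table holds raw counts per locus, without normalization or pooling. The strand counted, the placement of reads that match several loci and the use of molecular identifiers are not given in the sources used here. Loci on opposite strands of 1 place carry the same counts.

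The number in a sample title is 1 mouse, from which the 4 populations were sorted, so the mouse was a block. Deviations of same-mouse libraries correlated by -0.15 to 0.34 (median 0.09, 24 pairs). Replicate libraries differed by more than sampling noise (chi-square per degree of freedom 8.96 to 232). The main test was that of edgeR 4.0.16 under R 4.3.3 (filterByExpr, TMM, quasi-likelihood test, prior count 2, Benjamini-Hochberg over 478 loci). limma 3.58.1 tested log2((5p count + 0.5)/(3p count + 0.5)). Single values were compared by exact permutation within mice, and libraries were thinned to 622689 counts, 20 draws, for loci detected. DESeq2 1.42.0 was an alternative. In simulated data for PT against the mean of the others over 478 loci, 68 of 100 loci changed 2-fold and 91 of 100 changed 4-fold were called, with 5 of 278 unchanged loci called. The simulation gave the other populations a shared mean at each locus and no mouse effect. Its rates therefore need not hold for the real calls. The floors of 3 counts cover counting error only, while the SEs of edgeR and limma and the SDs include the spread between libraries.

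Named are the members of 13 miRNA lists, the 10 loci with the largest fold each way that do not overlap (PT mean, or mean of the other 12, at least 10 CPM), the 10 most abundant in PT cells, 5 hairpins each way and 2 loci on each side of the threshold. Loci of 1 name, or overlapping with r over 0.99, are named once, by the highest mean and, at a tie, the lower number. 25 tested loci were so represented. Members and lists were chosen with earlier results of these data known. Sequences came from RefSeq (422 of 478 loci matched by name and place). The 4 sequenced mice per condition were those closest to the mean of an injury marker, per the study's methods, and 1 UUO-7 library of PDGFR-β+ cells was left out as an outlier by the authors. Libraries of other conditions served only for the repeat of the contrast. Locus positions are those of the deposited table.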

Additional observations from a re-analysis of the deposited data

Results flagged for a closer look

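In 25 of 161 groups of 4 libraries, the highest or lowest library lay apart from the other 3 by Dixon's criterion. Chance flags about 1 in 20 groups, and the groups share mice and scaling factors. In PT cells, mouse 1 was the lowest library for miR-192-5p (100588 CPM, next 124349), for miR-194-5p (2245 CPM, next 2722) and for the share of the 10 leading loci (66.1%, next 68.6%), and mouse 2 for miR-3073a-3p (6.91 CPM, next 13.9). For miR-503-3p (2.30 CPM) and miR-27a-5p (0.932 CPM) the highest PT library was the only one with a count. Among Macs the library of mouse 4 was the highest for miR-192-5p (4621 CPM) and for the family of miR-192, miR-194 and miR-215 (0.745% of counts), and other libraries stood out for miR-802-5p (0.627 CPM), miR-300-3p (2.40), miR-511-3p (68.0), miR-450b-5p (14.5), miR-22-3p (24851), miR-200b-3p (240.4) and the 10 leading loci (60.1%). In PDGFR-β+ cells they were those for miR-1968-5p (0.369 CPM), miR-802-5p (1.92), miR-3073a-3p (1.92), miR-22-3p (40728) and miR-223-3p (51.7, next 3.84). In ECs they were those for miR-3073a-3p (0.814 CPM), miR-27a-3p (4910), miR-30e-5p (8609), miR-26a-5p (65025) and the 10 leading loci (74.6%).

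The contrast of PT cells with the other populations was also compared between sham and each other condition, for the loci whose call was opposite there, in 1 edgeR quasi-likelihood fit of all 63 libraries without the mouse block. This test was chosen after the calls had been seen. The loci were picked because the same libraries gave them opposite calls, so low adjusted p values were nearly fixed in advance and are no separate evidence. Each of the 22 differences had an adjusted p under 0.05, and values are the contrast in the condition minus that in sham, on the log2 scale. At UUO-2 it was 3.45 for miR-204-5p (adjusted p = 2.71e-09), 2.69 for miR-141-3p and 2.38 for miR-210-5p. At UUO-7 it was 4.44 for miR-204-5p, 3.65 for miR-141-3p, 3.21 for miR-133a-3p, 2.93 for miR-3086-5p, 2.85 for miR-224-5p, 2.68 for miR-672-5p, 2.36 for miR-210-5p, 2.37 for miR-210-3p, 1.92 for miR-10a-5p and 1.42 for miR-30b-5p, and it was negative for the loci of miR-181b-5p (-2.21 and -2.22) and for miR-125b-1-3p (-2.23). In R-UUO it was 3.33 for miR-141-3p, 3.28 for miR-204-5p, -2.97 for miR-125b-1-3p, -2.27 for miR-21a-3p, and -2.00 and -2.04 for the loci of miR-181b-5p.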

How the results depend on the processing

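Without the replicate block (the mouse) 138 loci were higher and 158 lower, and no count moved by over 1.5 times between the paired fit and that fit. Under library size alone 104 loci were lower against the mean, 233 were higher than in ECs, and 221 higher and 87 lower than in PDGFR-β+ cells. With every library thinned to the smallest total, which left 315 loci to test, 103 were lower than in ECs and 98 lower than in PDGFR-β+ cells. Against the mean, thinning gave 105 higher and 110 lower loci. It kept 91 of the 138 higher calls and 110 of the 157 lower ones. No call against the mean turned in direction under any alternative in which the same loci were compared. DESeq2 called 143 higher and 155 lower. miR-10b-5p, not called against the mean, turned to 0.40 under library size alone, to 0.035 after thinning and to 0.022 without mouse 1 (-0.29 to 0.022 over the mice left out). For arm ratios, a minimum of 20 counts left 40 hairpins with 7 higher, and thinning left 36 with 6 higher and 7 lower. Leaving out 1 mouse at a time gave 10 to 15 higher and 11 to 14 lower hairpins, and the lower count was 11 without mouse 3 and without mouse 4. It gave 139 to 146 higher and 120 to 149 lower loci against the mean, and 61.0 to 72.4 more loci detected in PT cells, with p above 0.05 without mouse 1. PT depth limits what a count of 0 can show.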

Other observations

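Entries of the table whose name carries no arm (neither 5p nor 3p) were 37 of the 478 tested loci (7.74%). They were 17 of the 80 loci called higher in PT cells than in each other population (21.3%) and 1 of the 44 called lower than in each (2.27%). The most abundant were miR-6240, with a mean of 2667 CPM in PT cells against 195 CPM in ECs, 173 CPM in Macs and 210.9 CPM in PDGFR-β+ cells, miR-6538 (1964 CPM), miR-5099 (941 CPM against 131 to 318 CPM), miR-30f (815 CPM) and miR-6236 (220.4 CPM against 24.9 to 35.1 CPM). In every library miR-30f carried nearly the same counts as miR-30e-3p, whose name does give an arm. The entries without an arm were singled out after their values had been seen. PT libraries were also the shallowest, and the part of depth in this share was not tested.

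Members of a shared seed did not always move together. With the seed ACAUUCA, miR-181b-5p was called higher (1.38) and miR-181a-5p (-0.72), miR-181c-5p (-3.33) and miR-181d-5p (-2.52) lower, of which miR-181a-5p was not called under library size alone (-0.08). With the seed AUUGCAC, miR-363-3p (4.82) and miR-92b-3p (1.94) were called higher, miR-25-3p (-1.20) lower and miR-32-5p (-0.67) neither, and miR-25-3p was not called under library size alone (-0.56). miR-92a-3p, of the same seed, was called lower at its chromosome 14 locus (-1.24) and higher at its X locus (1.12), and the placement of its reads between the loci, whose mature strand is the same, depended on the aligner. miR-221-3p (1.69) and miR-222-3p (1.87), neighbours on the X chromosome with 1 seed, were both higher.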
